A study of Homo sapiens with 12 samples.

Results

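KO-52 is an acute myeloid leukaemia (AML) cell line that carries CEBPA mutations on both alleles. ATAC-seq, in which the Tn5 transposase cuts accessible DNA, was performed on KO-52 cells transduced with p42 (the full-length CEBPA protein) or p30 (its N-terminally truncated isoform) or carrying an empty vector (EV), so that all 3 lines shared the endogenous mutant CEBPA. Cells were kept in DMSO or given tunicamycin (Tm, which blocks N-glycosylation and induces endoplasmic reticulum stress) at 2 µg/mL for 8 h, with 2 replicates of 50000 nuclei in each of the 6 conditions, 12 libraries in all. The methods describe transduction of KO-52 cells with ERT2 fusions, which 4-hydroxytamoxifen brings to the nucleus, followed by GFP sorting, and the sample labels do not name the construct. The regions described here were selected on the peak lists themselves: the peaks of the 6 lists, each called on pooled replicates, were merged on chromosomes 1 to 22 and X wherever they overlapped by at least 1 bp, and a region was kept if it held a peak in p42 cells in both DMSO and Tm and none in either p30 or EV list. This rule gave 16258 regions of 355051, which is 4.58% of all merged regions, and they are called p42-only regions below. They stand against 153109 regions that were called in DMSO and Tm of p42 cells and in 1 or more of the other 4 lists, named shared regions here. Because each list pools its replicates, no value below has a replicate spread, no test between conditions was possible, and the 95% intervals cover the counting of regions alone.

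CEBPA is a basic leucine zipper (bZIP) transcription factor that drives granulocyte and monocyte development. It binds DNA as a dimer, and the palindromic site is made of facing TTGC and GCAA arms, as in TTGCGCAA or TTGTGCAA (TTGCACAA on the opposite strand). C/EBP proteins also pair with other bZIP proteins: with AP-1 members on the composite ATGTTGCAA or GTGTTGCAA, and with ATF4, the effector of the integrated stress response, on TGATGCAAC or TGATGCAAT. AP-1 dimers of FOS and JUN bind TGACTCA or TGAGTCA. The p30 isoform lacks N-terminal transactivation sequence of p42 but keeps the DNA-binding domain.

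To show what these regions look like, the bases within 50 bp of the p42 DMSO summit are printed for 8 of the strongest p42-only regions, ranked by the lower of their 2 p42 −log10 q values, followed by the strongest that held a CEBP:AP1, an ATF4 or an AP-1 match. The last was chosen after its values were seen and holds the palindrome TTGCGCAA. All are forward-strand reference sequence of hg38, and capitals mark matches to the CEBP, CEBP:AP1, ATF4, NFIL3, AP-1 or PU.1 sequences.
chr13:32362739-32362839: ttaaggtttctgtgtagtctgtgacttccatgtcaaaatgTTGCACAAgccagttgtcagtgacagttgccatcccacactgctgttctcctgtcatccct
chr4:15945613-15945713: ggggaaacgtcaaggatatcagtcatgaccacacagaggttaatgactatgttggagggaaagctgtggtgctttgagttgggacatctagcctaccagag
chr1:231763635-231763735: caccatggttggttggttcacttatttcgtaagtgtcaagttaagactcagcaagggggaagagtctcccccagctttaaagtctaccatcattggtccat
chr1:39530320-39530420: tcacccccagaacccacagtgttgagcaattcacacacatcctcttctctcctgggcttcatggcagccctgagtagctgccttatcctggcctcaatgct
chr3:20307522-20307622: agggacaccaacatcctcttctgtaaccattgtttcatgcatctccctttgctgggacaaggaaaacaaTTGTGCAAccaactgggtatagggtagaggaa
chr4:176805300-176805400: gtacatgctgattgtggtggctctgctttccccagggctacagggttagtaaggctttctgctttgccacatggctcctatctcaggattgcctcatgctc
chr6:38509101-38509201: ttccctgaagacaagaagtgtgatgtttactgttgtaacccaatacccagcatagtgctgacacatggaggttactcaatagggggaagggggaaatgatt
chr9:34777773-34777873: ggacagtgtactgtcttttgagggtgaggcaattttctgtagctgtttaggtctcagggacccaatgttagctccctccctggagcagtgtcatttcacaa
chr1:150881889-150881989: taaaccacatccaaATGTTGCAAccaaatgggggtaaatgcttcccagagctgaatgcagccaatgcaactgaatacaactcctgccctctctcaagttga
chr11:18089152-18089252: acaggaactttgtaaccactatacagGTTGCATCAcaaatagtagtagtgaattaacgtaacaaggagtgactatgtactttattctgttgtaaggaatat
chr6:159716858-159716958: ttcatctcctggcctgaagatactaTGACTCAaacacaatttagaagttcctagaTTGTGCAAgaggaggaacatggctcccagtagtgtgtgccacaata
chr6:44036751-44036851: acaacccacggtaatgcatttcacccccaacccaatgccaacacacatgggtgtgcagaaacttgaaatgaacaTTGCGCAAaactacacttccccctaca

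Regions open only in p42 cells outnumbered their counterparts in the other lines. The same rule applied to p30 cells, a peak in both p30 lists and in none of the other 4, gave 2190 regions (0.617% of all merged regions), and applied to EV cells it gave 1983 (0.559%). There were thus 7.42 times as many p42-only as p30-only regions and 8.2 times as many as EV-only regions. They made up 9.6% of the 169367 regions called in DMSO and Tm of p42 cells, against 1.51% and 1.39% for the p30 and EV counterparts. The p42 lists were also the longest, with 253445 peaks in DMSO and 220835 in Tm against 187113 to 207005 in the p30 and EV lists, and the p42 DMSO list was the deepest, with an estimated 29980000 tags against 22250000 to 26530000 for the 5 others. With the same number of peaks kept in every list, 187113 by −log10 p, there were 9182 p42-only, 2642 p30-only and 2684 EV-only regions, ratios of 3.48 and 3.42. When the p42 tags of each region were multiplied by the depth ratio to the shallowest list, 81.8% of the p42-only regions (13301) stayed above the calling threshold. The scaling used the same tags that selected the regions and added no sampling variation. It therefore cannot tell how many would be called at that depth. How much of the remaining excess comes from depth or from list length was not tested.

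Most p42-only regions were weak and narrow peaks. The number of tags at the summit, recovered from the fold enrichment and p-value of each peak, had a median of 8 in the p42 DMSO list (lowest 4, highest 36) and of 7 in the p42 Tm list (lowest 4, highest 34), whereas shared regions had medians of 16 and 14. The median width was 139 bp (quartiles 104 and 197 bp) against 297 bp for shared regions. The p30-only and EV-only regions were narrower still, with medians of 113 and 114 bp. Their median tags in their own DMSO and Tm lists were 7 and 6 for p30-only and 6 and 6 for EV-only regions. By −log10 q their median percentile was 37.7 in the p42 DMSO list and 26.2 in the p42 Tm list. These strengths follow in part from the rule, since a strong site is more readily called in a further list. As a description, the lower −log10 q of the 2 lists reached at least 5 in 3209 p42-only regions and at least 10 in 324, against 67 and 0 p30-only and 58 and 0 EV-only regions, whose highest values were 8.35 and 8.64.

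The boundary of the rule is a called peak, with a −log10 q of 1.3 in each list. The weakest member lay within an intron of HYCC1 (chromosome 7, 22999559 to 22999659) and had 4 tags and a −log10 q of 1.31 in DMSO, and 7 tags and 4.53 in Tm. Just outside, a region on chromosome 12 from 50066549 to 50066743 had 10 and 9 tags in the p42 lists, but was left out by a peak of 4 tags and a −log10 q of 1.3 in the p30 Tm list. In all, 11169 regions had both p42 peaks and a peak in exactly 1 further list, with a median −log10 q of 3.53 there.

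The strongest p42-only region, chromosome 13 from 32362654 to 32362911, was intronic in BRCA2, with the start of ZAR1L, 47.4 kb away, as the nearest protein-coding start. It had 33 tags in DMSO and 27 in Tm, at the 96.5 and 91.2 percentiles of the lists, and held the TTGCACAA octamer 10 bases before the summit. BRCA2 encodes a homologous recombination factor. All 4 regions open in both p42 lists between 32360190 and 32376152 in that gene were p42-only. The second, 6.92 kb from the start of FGFBP1 on chromosome 4, had 24 and 26 tags and a width of 662 bp, and the third, in an intron of DISC1, had 22 and 21 tags. Neither held an exact match, but the third shows TTTCGTAA, an octamer that was frequent among p42-only regions (below).

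Of the 20 strongest members, 3 held a CEBP match within 100 bp of the summit, in the BRCA2 intron, on chromosome 3 121 kb from the start of SGO1 (22 and 21 tags), and in an intron of ZFAT on chromosome 8 (25 and 25 tags). A further 1 held the CEBP:AP1 composite, on chromosome 1 5.2 kb from CTXND2, with 25 tags in DMSO and 17 in Tm. An octamer with at most 1 letter different from the CEBP octamers was present in 16 of the 20. This looser pattern was chosen after seeing the data. It was held by 39.8% of all p42-only regions and by 17.6% of shared regions with a lower −log10 q of 15 or more. The others of the 20 with a named neighbour included sites 12.4 kb from the start of VEGFC, a lymphatic growth factor (19 and 19 tags), in introns of BTBD9, BIRC6, DLEU7 and LRRC74A, in an exon of WAC with the start of BAMBI as the nearest, 15.9 kb from CASR, the calcium-sensing receptor (18 and 19 tags), 19.2 kb from PPM1A, and 14.3 kb from MYO3B. Tags ranged from 17 to 33 in DMSO and from 17 to 27 in Tm over these 20.

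C/EBP sites were more frequent in p42-only regions than in the 4 other sets compared. Motifs were searched on both strands, and the match counts of different motifs are not exclusive. A CEBP octamer lay within 100 bp of the summit in 982 p42-only regions, 6.04% (95% Wilson interval 5.68 to 6.42%), against 1.41% of shared, 1.18% of regions open in all 6 lists, 0.502% of p30-only (11 regions) and 0.454% of EV-only regions (9 regions). The difference from shared regions was 4.63 percentage points (95% Newcombe interval 4.27 to 5.01), and from p30-only regions 5.54 points (5.01 to 5.97). With shared regions weighted to the same strengths and GC contents the share was 1.32%, a ratio of 4.59. Regions with a peak in exactly 1 further list, the nearest to the rule, had a CEBP share of 2.83%, and those with 2, 3 and 4 further lists 2.02%, 1.61% and 1.18%. The palindrome TTGCGCAA was rarer (57 regions, 0.351%) and was 7.31 times as frequent as in weighted and 4.67 times as frequent as in unweighted shared regions, with none in the p30-only or EV-only sets (upper 95% Wilson bounds 0.175% and 0.193%). Of all merged regions, 1.59% held a CEBP match.

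The composite sites of C/EBP proteins with other bZIP factors were also more frequent in p42-only regions. CEBP:AP1 matches were found in 417 p42-only regions, 2.56% (2.33 to 2.82%), against 0.577% of shared, 0.274% of p30-only and 0.202% of EV-only regions, and the difference from shared regions was 1.99 points (1.75 to 2.25). ATF4 matches were found in 372, 2.29% (2.07 to 2.53%), against 0.644% of shared regions, 1 of 2190 p30-only regions and 2 of 1983 EV-only regions. NFIL3 sites (TTACGTAA or TTATGTAA, bound by the bZIP repressor NFIL3 and its PAR relatives) were found in 3.04% against 1.1% of shared regions. At least 1 of these 4 was present in 2215 p42-only regions, 13.6% (13.1 to 14.2%), against 3.66% of shared, 1.55% of p30-only and 1.41% of EV-only regions. Both a CEBP and a CEBP:AP1 match were found in 13 regions, and both a CEBP and an ATF4 match in 6. In 1 region a CEBP match overlapped an ATF4 match. Each motif alone was rare, so these small numbers do not tell whether the motifs marked different regions.

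AP-1 sites without a C/EBP arm went the other way. TGACTCA or TGAGTCA lay within 100 bp of the summit in 935 p42-only regions, 5.75% (5.4 to 6.12%), fewer than the 9.49% of shared, 11.6% of p30-only and 18.3% of EV-only regions. The difference was −3.74 points from shared regions (−4.11 to −3.34) and −12.5 points from EV-only regions (−14.3 to −10.8). RUNX sites (AACCACA) were found in 7.32% of p42-only regions against 10.1% of shared, 11.6% of p30-only and 12.1% of EV-only regions. GATA sites (AGATAAG) were found in 2.54% of p42-only, 3.1% of shared and 2.42% of p30-only regions, and EV-only regions were high, at 7.46%. The interval of the difference between p42-only and p30-only regions included 0 (−0.647 to 0.739). The PU.1 sequence GAGGAAGT, the site of the myeloid factor SPI1, was found in 6.77% of p42-only, 8.48% of shared, 6.3% of p30-only and 4.69% of EV-only regions, and the interval of the difference from p30-only regions included 0 (−0.688 to 1.49). CTCF sites, which mark insulators, were found in 1.48% of p42-only against 8.98% of shared regions, but also in 1.87% of p30-only and 1.21% of EV-only regions. MYB (AACTGCC) was found in 3.88% and IRF (AANTGAAA) in 7.89%, against 3.35% and 7.19% of shared regions. With shared regions weighted to the same strengths and GC contents the IRF share there was 8.99%, which turns the direction (ratio 0.877), and for MYB it was 3.41%. Of all merged regions, 0.673% held a CEBP:AP1, 0.705% an ATF4, 1.25% an NFIL3, 9.33% an AP-1, 9.21% a RUNX, 3.2% a GATA, 6.86% a PU.1, 4.93% a CTCF, 3.35% a MYB and 7.36% an IRF match.

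**Figure D1:**
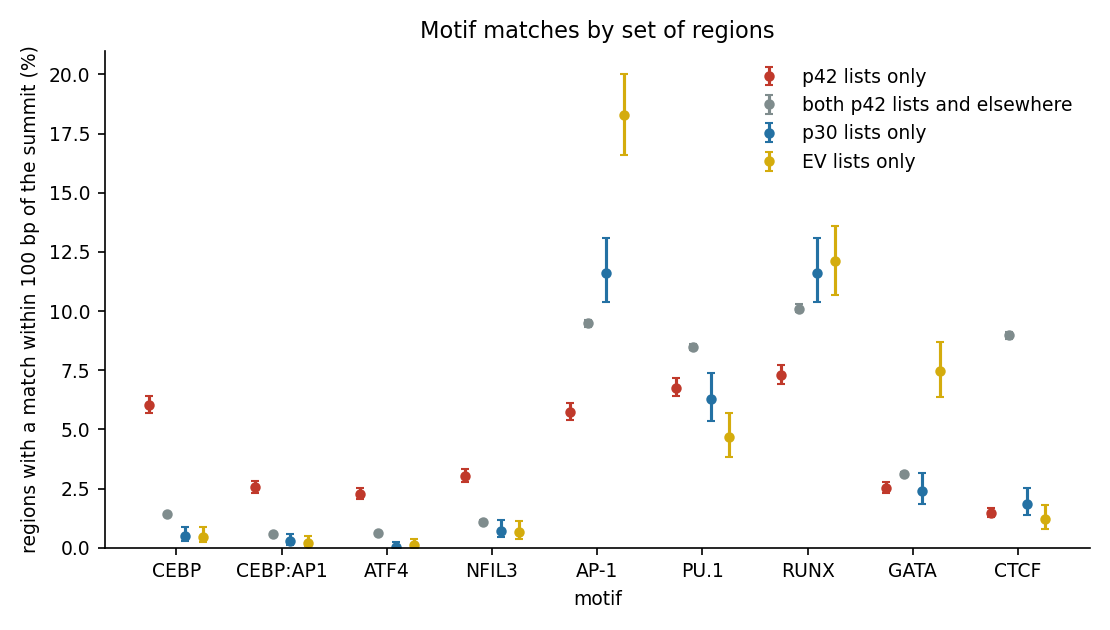
Share of regions with a motif match within 100 bp of the summit (y axis, %) for 9 motifs (x axis) in p42-only regions (red), shared regions (grey), p30-only (blue) and EV-only regions (yellow); bars are 95% Wilson intervals. The 4 C/EBP-related motifs on the left are highest in p42-only regions, led by CEBP at 6.04%, and AP-1 is lowest there, at 5.75%.

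Matches were denser near the summit than away from it, though not all at its centre. CEBP matches were 6.02 times as dense within 25 bp of the p42 DMSO summit as 100 to 150 bp away in p42-only regions, against 1.81 times in shared regions. In bins of 20 bp they were spread from −70 bp (7.38 per 1000 regions) to 30 bp (8.67), with 7.26 and 7.01 in the central bins. The corresponding ratios were 8.56 and 2.01 for CEBP:AP1, 7.38 and 2.86 for ATF4, and 1.97 and 0.901 for NFIL3. AP-1 was centred more sharply in shared (3.89) than in p42-only regions (2.31), and PU.1 equally in both (11.6 and 11.5).

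**Figure D2:**
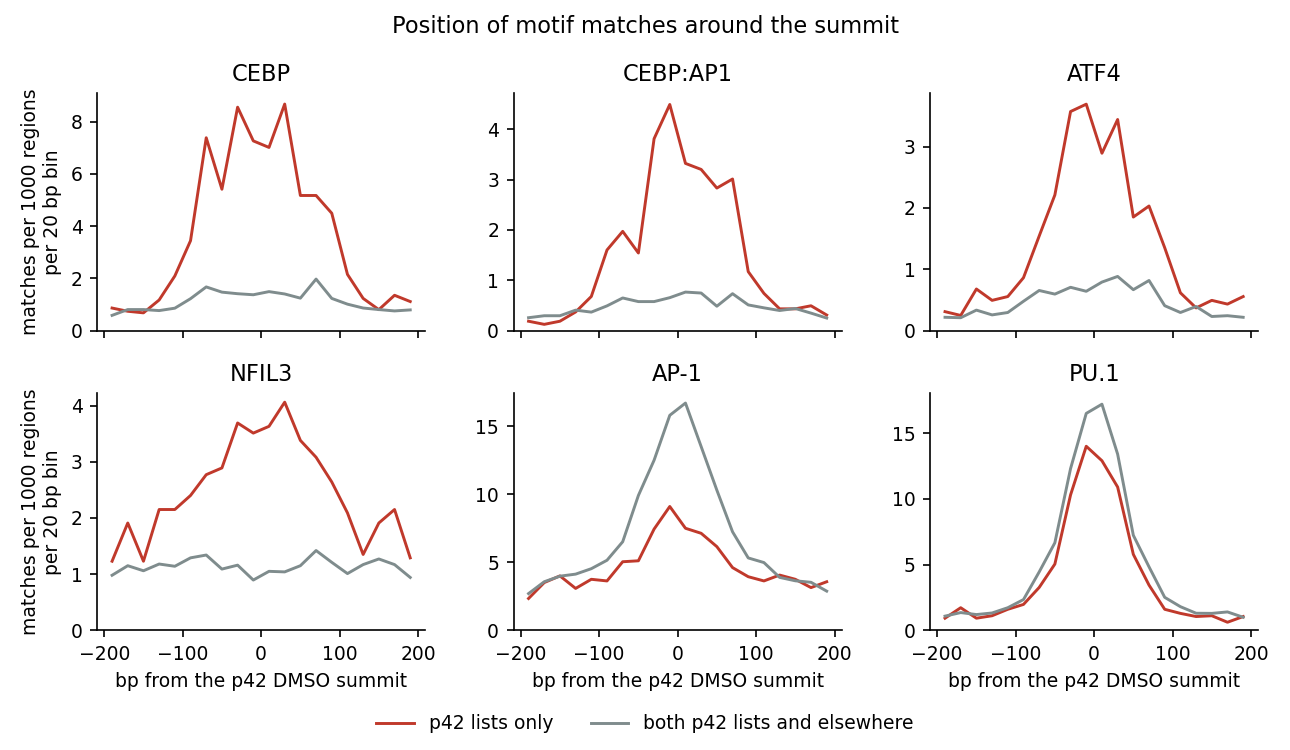
Motif matches per 1000 regions in bins of 20 bp (y axis) by distance from the p42 DMSO summit in bp (x axis), for 6 motifs, in p42-only (red) and shared regions (grey). Near the summit, CEBP, CEBP:AP1, ATF4 and NFIL3 are higher in p42-only regions, CEBP with its highest bins at −30 and 30 bp (8.55 and 8.67), while AP-1 is higher in shared regions.

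C/EBP sites were more frequent in stronger p42-only regions. The CEBP share was 4.47% where the lower −log10 q was under 3 (5724 regions), 5.83% from 3 to 5, 7.91% from 5 to 7.5, 11.5% from 7.5 to 10 (646 regions) and 15.4% from 10 to 15 (279 regions, interval 11.6 to 20.1%). At 15 and over it was 11.1%, but from 5 of 45 regions (4.84 to 23.5%). In shared regions the same bins lay between 0.909% and 1.71%. CEBP:AP1 went from 1.99% in the weakest to 13.3% in the strongest bin (6 of 45 regions, 6.26 to 26.2%), and shared regions stayed between 0.384% and 0.681%. The strength of a peak was also used by the rule, which keeps strong sites out unless they are weak in the other lists, so these bins are a description of the members.

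**Figure D3:**
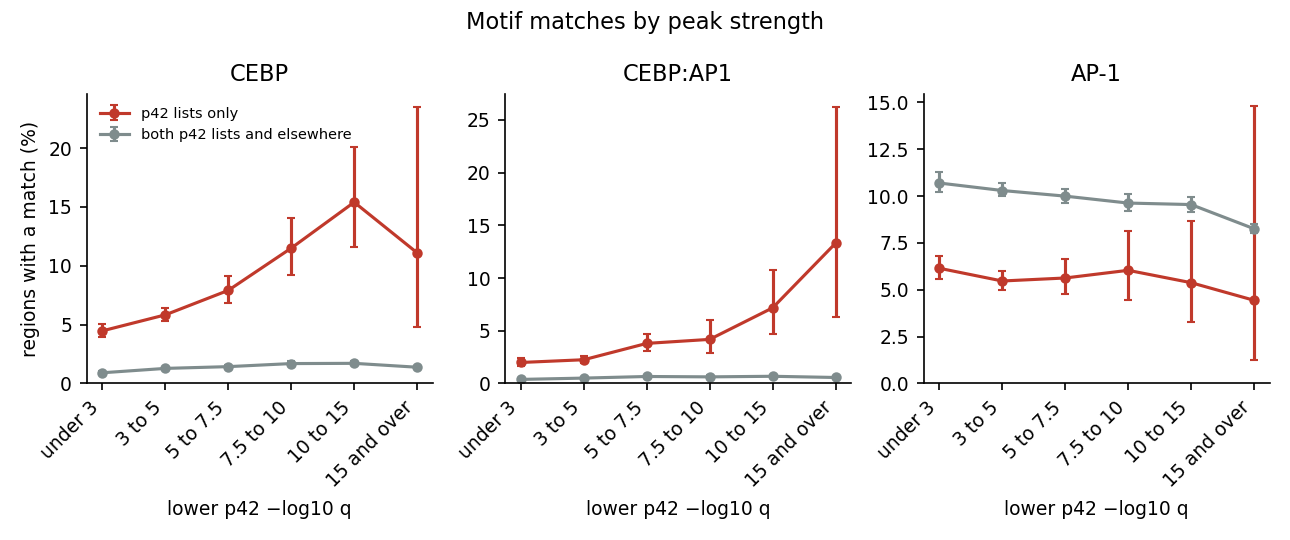
Share of regions with a match (y axis, %) by the lower of the 2 p42 −log10 q values (x axis) for CEBP, CEBP:AP1 and AP-1, in p42-only (red) and shared regions (grey), with 95% Wilson intervals. CEBP goes from 4.47% to 15.4% in p42-only regions before the thinly filled last bin, and AP-1 lies below the shared regions in each bin.

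A search without preset motifs also led to C/EBP-like letters. Each of 21921 octamers found in enough regions was counted within 50 bp of the summit and set against shared regions weighted to the same strengths, and 365 (1.67%) were at least 2 times as frequent in p42-only regions, while 1021 (4.66%) were at most 0.5 times as frequent. The arm TTGC or GCAA was part of 152 of the 365 (41.6%) and of 4.02% of all octamers compared. Of the 25 with the highest ratios, 16 held that arm and 24 held a CG dinucleotide, which 9.02% of all compared held. They were led by TGTCGCAA (47 regions, ratio 9.98), and included TTGCGCAA (33 regions, 8.0), TTTCGCAA (71 regions, 7.69), TTACGCAA (78 regions, 6.66), TTACGTAA (60 regions, 6.39), TTGCACAA (531 regions, 5.84) and TTTCGTAA (65 regions, 5.53).

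Most octamers with the outer letters of the palindrome did not reach a ratio of 2, but a larger share did than of all octamers. Of those of the form TTNNNNAA, 24 (21.6%) were at least 2 times as frequent in p42-only regions, against 1.67% of all octamers compared. The median ratio of the TTNNNNAA octamers was 1.19 against 1.02 for all octamers. With 1 intact arm, TTGCATAA was found in 312 regions (ratio 3.86) and TTGAGCAA in 342 (3.73). TTGTGTAA (339 regions, 4.61) and TTTCACAA (408 regions, 3.63) hold neither TTGC nor GCAA. The site near BMP8A printed above shows TTGAGCAA. When any octamer with at most 1 letter different from the CEBP octamers was accepted within 100 bp, 39.8% of p42-only regions (39.1 to 40.6%) held one, against 19.4% of shared, 15% of p30-only and 15% of EV-only regions, and the share was 34.6% in the weakest and 62.2% in the strongest p42-only bin (28 of 45 regions).

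The p42-only regions had similar tag numbers in DMSO and Tm, as far as the rule can show, since it asks for a peak in both and so leaves out sites open in 1 of them. The log2 ratio of depth-scaled summit tags in Tm over DMSO had a median of 0.01 (quartiles −0.28 and 0.24), and in shared regions of 0.09 (−0.14 and 0.30). In 310 p42-only regions (1.91%) the scaled tags were at least doubled in Tm and in 231 (1.42%) they were at most 0.5 times those in DMSO, and among the 3209 stronger regions (lower −log10 q of 5 or more) these numbers were 4 and 5. Regions with an ATF4 match had a median of 0.01 with the same median in those without, and regions with a CEBP:AP1 match a median of −0.03. Tags are whole numbers of about 4 to 36, so a ratio for 1 region is coarse. The summits of the 2 lists lay a median of 25 bp apart, against 20 bp in shared regions, and 77.9% lay within 50 bp of each other. A further 47299 regions had a peak in p42 DMSO alone and 17597 in p42 Tm alone of the 6 lists, and were outside the rule.

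Most p42-only regions were distal. Within 1000 bp of an annotated start site lay 1509 of them, 9.28% (8.85 to 9.74%), against 20.2% of shared, 12% of p30-only and 11.4% of EV-only regions. Introns held 54.9%, intergenic sequence 32.2% and exons 3.68%. The median distance to the start of a protein-coding gene was 58.1 kb against 42.3 kb for shared regions, and the GC content within 100 bp of the summit was 43.8% against 47.3%. For p30-only regions the medians were 62.4 kb and 45.3%, and for EV-only regions 64.3 kb and 44.3%. The larger distance and lower GC content than in shared regions were thus not particular to p42-only regions. CEBP matches were found in 5.04% of p42-only regions at promoters and in 6.54% of intergenic ones. Chromosomes 5 (11.4%), 8 and 13 (10.7% each) held the highest shares of p42 regions that were p42-only, and chromosome 19 (6.25%) and 22 (7.32%) the lowest. Chromosomes 5, 8 and 13 held 1020, 1095 and 867 of the 16258 p42-only regions. The corresponding numbers were 96, 165 and 156 of 2190 p30-only regions and 110, 144 and 133 of 1983 EV-only regions.

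At 531 protein-coding genes, 2.66% of 19962, a start site had a p42-only region within 1000 bp and no region open in any p30 or EV list there. They were named after their values were seen. The strongest at the main start of the gene were HAL, which encodes histidine ammonia-lyase, with 21 tags in DMSO and 22 in Tm and the summit 0.008 kb from the start, and HCAR2, the niacin receptor of neutrophils and other myeloid cells, with 17 and 14 tags, 0.011 kb from its start. Alternative starts inside WDFY1 (21 and 19 tags), MTBP (23 and 16), MAST2 (26 and 17) and MARK3 (20 and 15) were stronger.

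Of all 19962 protein-coding genes, 9843 (49.3%) had at least 1 p42-only region within 50 kb of the start and 812 (4.07%) had at least 3, so that a single region near a gene is common. Summed over all genes, 7.58% of the regions open in both p42 lists within 50 kb were p42-only. In this sum a region near the starts of several genes counts for each of them. Against that share, the 17 gene lists ranged from 4.46% for the AP-1 family (10 of 224 regions, interval 2.44 to 8.02%) to 12.3% for hepatocyte genes (13 of 106, 7.31 to 19.9%), and the intervals of all 17 lists included 7.58%. The lists were chosen with earlier results of these data known, and the sites below are given as positions, not as a property of a list.

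Among neutrophil granule genes, 9 of 13 primary (69.2%) and 7 of 16 secondary or tertiary granule genes (43.8%) had a p42-only region. The share of all protein-coding genes, 49.3%, lay within the intervals of both (42.4 to 87.3% and 23.1 to 66.8%). SLPI, a secreted protease inhibitor, had 1 at its promoter, 0.364 kb before the start, with 14 tags in DMSO, 11 in Tm and a CEBP match. MMP8, neutrophil collagenase, had 2 within 50 kb, the stronger 17.6 kb after its start and 3.65 kb from that of MMP27, with 21 and 11 tags and a CEBP match. CHI3L1 had 4 of the 14 p42 regions in its window, the strongest with 13 and 9 tags. SERPINB1, an inhibitor of neutrophil elastase, had a site with 22 and 16 tags 31.4 kb from its start, LYZ (lysozyme) one with 9 and 9 tags, and DEFA4 one with 8 and 10 tags at its start.

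Of the 30 cytokine and inflammatory genes, 17 (56.7%) had a p42-only region, against 49.3% of all protein-coding genes. At least 3 were found near 7 of the 30, against 4.07% of all genes. Neighbouring genes can share regions, as CCL3 and CCL4 do below, so these genes are not independent. In the windows of the 30 genes, 33 of 406 p42 regions were p42-only, 8.13%, against 7.58% around all genes. The strongest, in an intron of SOD2 (mitochondrial superoxide dismutase) 45.6 kb from its start and 8.68 kb from that of WTAP, had 24 and 20 tags and held both a TGACTCA and a TTGTGCAA, printed above. CCL3 and CCL4, neighbouring macrophage chemokines, shared a site with 20 and 15 tags and a CEBP match, and IL10 had one with 13 and 12 tags. NFKBIZ had a site with a CEBP match (13 and 7 tags) and IKBKB one with a CEBP:AP1 match (16 and 12 tags). Among interferon-stimulated genes, RSAD2 had a site 9.45 kb before its start with 16 and 10 tags and a CEBP:AP1 match.

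Receptors and surface proteins of myeloid cells were represented by CSF2RB, the common beta chain of the GM-CSF receptor, with 19 and 15 tags 10.1 kb into the gene, by CXCR2, a neutrophil chemokine receptor, with 17 and 20 tags 33.4 kb before the start, by TLR2 (14 and 12 tags) and by IL1R2, which had 3 sites, the strongest with 11 and 7 tags. Of the 22 myeloid transcription factor genes, 15 (68.2%, interval 47.3 to 83.6%) had a p42-only region, against 49.3% of all protein-coding genes. Among the 15 were EGR1 (15 and 15 tags, with an AP-1 match), RARA (22 and 17 tags) and ZEB2 (23 and 25 tags, 0.83 kb before its start). Within the C/EBP family, CEBPE, which acts in late granulocyte maturation, had a site 10.8 kb before its start with 11 and 7 tags, CEBPB one with 9 and 14 tags, and CEBPA one 28.1 kb before its start with 9 and 4 tags.

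Of the 28 ATF4 and unfolded protein response genes, 16 (57.1%) had a p42-only region, against 49.3% of all protein-coding genes. At least 3 were found near 3 of the 28, against 4.07% of all genes. In the windows of the 28 genes, 25 of 337 p42 regions were p42-only, 7.42%, against 7.58% around all genes. SLC3A2, the heavy chain of an amino acid transporter, had a site 5.37 kb into the gene with 19 tags in DMSO, 14 in Tm and a CEBP match, ATF5 one with 14 and 10 tags and an NFIL3 match, and SDF2L1 one with 15 and 18 tags. Among stem cell and progenitor regulators, 11 of 20 (55%) had a p42-only region, led by FLI1 (15 and 14 tags), and MYC had 2. In the windows of these 20 genes, 14 of 278 p42 regions were p42-only, 5.04%. Lists that serve as a contrast were not empty. A p42-only region was found at 6 of 14 erythroid (42.9%), 7 of 16 lymphocyte (43.8%) and 5 of 12 housekeeping genes (41.7%), including B2M (18 and 16 tags). It was found at 8 of 14 hepatocyte genes (57.1%).

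The genes with the most p42-only regions within 50 kb were RNF220 and MIDEAS, with 6 each of 22 and 23 p42 regions, followed by TUT4, ARFGEF2, CCN4, ZNF774, LINS1, ASB7, CYSLTR2 and NPFFR1 with 5 each. The strongest of these sites lay in an intron of TUT4, a uridyltransferase of RNA, with 15 tags in DMSO and 24 in Tm. LINS1 and ASB7 start next to each other and share their regions, and CYSLTR2, a leukotriene receptor, had 5 of 11. In all, 2529 p42-only regions (15.6%) had another within 10 kb, but no run was longer than 5. The 2 runs of 5 spanned 15.8 kb over PCID2 on chromosome 13 and 15.1 kb on chromosome 2 that overlapped no protein-coding gene, with FANCL as the nearest.

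Of 12 myeloid genes, such as CD33, MPO and SPI1, 11 had a promoter peak in every list, whereas 4 of 4 erythroid genes had none in any list. T and B lymphocyte markers did not separate from these, since 2 of 4 and 3 of 4 had a promoter peak in every list, and CD3G and MS4A1 had none. Of 6 non-blood markers, 4 had none in any list. The lists cannot check the transgene, because a peak at CEBPA does not tell endogenous from transduced DNA.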

How the data were processed

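The authors trimmed reads (Trim Galore 0.6.6), aligned them to hg38 (Bowtie2 2.4.4), removed duplicates (Picard) and called MACS2 peaks on the 2 pooled replicates of each condition. These steps are from the submitters' processing notes and methods given jointly for ChIP-seq and ATAC-seq, and a Tn5 shift is not given in the sources used here. The deposited lists hold a fold enrichment (a ratio of summit pileup to local background), −log10 p and −log10 q for each peak, with no counts per replicate. The q threshold was 0.05 as the lists show.

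Here, peaks were merged at 1 bp overlap with Python 3.11.15, numpy 2.4.6, scipy 1.17.1 and pandas 2.3.3, and plotted with matplotlib 3.10.9. Summit tags and background were solved from fold and p (100% of peaks, tolerance 0.0001 on −log10 p). Depth was the lowest background times 2700000000 bp over the shortest peak width, an estimate of 22250000 to 29980000 tags. Genes were those of GENCODE release 44. Motifs were exact matches within 100 bp of the p42 DMSO summit. Regions without a p42 DMSO peak used the summit of another list, which for p30-only and EV-only regions was their own DMSO list. Weighted shares used 6 strength and 6 GC strata, and octamers the strength strata. Scripts were tested on simulated data. Alternatives changed thresholds, overlap, depth, list size, chromosomes, motif window, motif and promoter width.

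The members, gene lists and motifs were chosen with earlier results of these data known. Named were the 20 members with the highest lower −log10 q of the p42 lists, the 10 genes with most members within 50 kb, and up to 4 genes per list by their strongest member. Sequences are those of the 8 strongest outside chromosome 8 and annotated untranslated regions, with the strongest CEBP:AP1, ATF4 and AP-1 matches. Marker lists were myeloid, T cell, B cell, erythroid and non-blood. Some items are not reported here.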

Additional observations from a re-analysis of the deposited data

How the results depend on the processing

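The lists pool their replicates, so no replicate could be left out and intervals cover the counting of regions only. No paired analysis was possible because each list pools both replicates of a condition and its columns carry no replicate number. Of 9 alternatives for the number of p42-only regions, 5 lay within 1.5 times of it and 4 did not: 9425 with a −log10 q of at least 5 in every list, 3209 and 324 with at least 5 or 10 in both p42 lists, and 9182 with lists cut to equal length. In those last 3 settings the CEBP share was 9.32%, 14.8% and 7.09%, the CEBP:AP1 share 4.3%, 8.02% and 3.08%, and in the first 2 of them the ATF4 share 2.99% and 3.4%. The CEBP share was 6.53% with p42 tags scaled to the shallowest list. With motif windows of 50 and 200 bp it was 3.46% and 7.26%, CEBP:AP1 1.55% and 2.97%, ATF4 1.51% and 2.75%, and AP-1 3.48% and 9.04%, as fewer or more bases were searched. AP-1 was 6.51% with a −log10 q of at least 5 in every list and 5.25% with at least 10 in both p42 lists. The promoter share was 10.3% with at least 5 in every list, 7.87% with no p30 or EV peak within 500 bp, 9.82% with equal list sizes, and 5.27% and 16% with promoters of 500 and 2000 bp. Accepting CEBP octamers at most 1 letter off, chosen after seeing the data, gave 39.8%. In every setting run, the ratio to shared regions stayed above 1 for CEBP (2.05 to 9.98), CEBP:AP1 (3.16 to 13.3) and ATF4 (2.99 to 5.85) and below 1 for AP-1 (0.55 to 0.706) and promoters (0.337 to 0.599). Beyond what each setting's construction changes, the cause was not tested.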
